A study of Mus musculus with 13 samples.

Results

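Small structural RNA genes were taken as every gene whose type in the mm9 mouse annotation (GENCODE vM1) is snRNA, snoRNA, rRNA or miRNA, with the gene's bounds extended by 500 bases on each side to give a window. This rule gave 4884 windows of the 37310 annotated genes, of which 1423 were snRNA, 1552 snoRNA, 332 rRNA and 1577 miRNA genes. The gene lay wholly inside a protein-coding gene on either strand for 2044 of them and outside for 2840, and the hosted members were 511 snRNA, 578 snoRNA, 178 rRNA and 777 miRNA genes. A window was counted as called in a library when it shared at least 1 base with a peak of that library.

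R-loops were measured by DNA-RNA immunoprecipitation and sequencing (DRIP-seq), in which the S9.6 antibody pulls down RNA-DNA hybrids from digested genomic DNA, in N2a cells, a mouse neuroblastoma line. The cells were transfected with a scrambled siRNA (siScramble), with siRNA against Ddx1 (siDDX1), which encodes a putative RNA helicase, or with siRNA against Exosc3 (siEXOSC3), which encodes a subunit of the RNA exosome. Each of the 3 groups had 3 untreated libraries from separate plates and 1 library treated with RNase H, which digests the RNA of a hybrid, so the 9 untreated libraries could be set against 3 RNase H libraries. The peak lists hold no expression values, so neither the knockdown nor the cell type was checked here.

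The sample titles and the names of the peaks disagreed on the treatment in 12 of 12 lists, by 1 fixed rotation: titles of siScramble went with peak names of siDDX1, titles of siDDX1 with siEXOSC3 and titles of siEXOSC3 with siScramble. Groups are named here by title, so every direction between groups is a direction between libraries so labelled. The RNase H, host and genome comparisons and the test across the 3 groups keep their values under this rotation.

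An R-loop forms when a transcript pairs with its DNA template behind RNA polymerase and leaves the other strand single, and transcribed GC-rich stretches near gene starts are known sites of R-loops. Most vertebrate snoRNA are cut out of introns of ribosomal protein, translation factor and noncoding host genes: C/D box snoRNA guide ribose methylation and H/ACA snoRNA guide pseudouridylation of rRNA. The snRNA form the spliceosome, except for U7, which acts in histone mRNA processing. RNA polymerase III transcribes 5S rRNA and U6, and miRNA are processed from hairpins in introns, exons or genes of their own. The RNA exosome trims and degrades many of these transcripts.

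The sequences below belong to members on which the results turn. The first set shows C/D box snoRNA that were called in every untreated library, with the box C letters TGATGA and box D letters CTGA in capitals where they stood near the ends; SNORD74 (mm9 chr1:162965525-162965604, plus strand) lies in the noncoding gene Gas5 and Snord32a (mm9 chr7:52382752-52382834, minus strand) in the ribosomal protein gene Rpl13a.
SNORD74: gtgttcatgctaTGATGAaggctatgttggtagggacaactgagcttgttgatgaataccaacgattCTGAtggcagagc
Snord32a: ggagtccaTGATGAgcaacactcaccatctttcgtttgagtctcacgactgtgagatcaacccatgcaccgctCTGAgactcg

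C/D snoRNA were counted by a SNORD or Snord name, outside the Snord115 and Snord116 families, so U3 and U13 are not among them. Both boxes were found in 46 of the 78 called in every untreated library, 24 of the 66 called in none and 91 of all 182. The second set is U2, shown because near-identical copies differed in their calls with and without RNase H: the commonest copy, 4 times on chromosome 11 (for example mm9 chr11:101488680-101488870, plus strand), and copies with 1 difference at mm9 chr11:83085000-83085190 and chr11:101466164-101466354, both plus strand. Capitals mark the base that differs, G109C and C170T, with positions counted from 1 at the 5′ end and the commonest copy as the reference.
U2 commonest: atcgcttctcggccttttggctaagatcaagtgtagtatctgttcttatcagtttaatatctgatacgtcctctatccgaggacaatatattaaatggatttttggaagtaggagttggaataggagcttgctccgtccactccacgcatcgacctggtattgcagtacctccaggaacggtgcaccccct
U2 G109C: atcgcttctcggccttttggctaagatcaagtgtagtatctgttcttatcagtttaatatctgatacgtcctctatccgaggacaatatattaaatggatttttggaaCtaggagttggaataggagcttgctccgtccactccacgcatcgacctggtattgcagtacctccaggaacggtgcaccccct
U2 C170T: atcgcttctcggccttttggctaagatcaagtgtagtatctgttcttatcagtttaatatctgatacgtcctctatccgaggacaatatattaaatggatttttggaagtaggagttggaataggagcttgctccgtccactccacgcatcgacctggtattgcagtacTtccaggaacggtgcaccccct

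The third is U12 (mm9 chr15:82980074-82980224, plus strand), a member of the minor spliceosome called in every untreated library, with its ATTTTTG letters in capitals.
U12: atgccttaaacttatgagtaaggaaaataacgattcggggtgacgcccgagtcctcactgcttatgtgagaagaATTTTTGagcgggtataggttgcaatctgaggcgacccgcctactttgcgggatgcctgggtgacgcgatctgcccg

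The ATTTTTG letters, those of the Sm-protein binding site in U2 and U12, stood in 48 of the 1423 snRNA genes on the gene's own strand. The fourth set is mature miRNA (RefSeq, 406 of 550 members with a Mir symbol or mmu-mir name matched by name), with the seed, bases 2 to 8, in capitals. They were chosen because they share a seed within each set. Calls differed between genes with AAAGUGC and between genes with GAGGUAG, but not between the 2 genes with UCACAGU. For GAGGUAG, Mirlet7b and Mirlet7c-2 were called in every untreated library and Mirlet7c-1 in none. The first 4 have the seed AAAGUGC and the next pairs have GAGGUAG and UCACAGU.
miR-106b-5p: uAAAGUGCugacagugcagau
miR-93-5p: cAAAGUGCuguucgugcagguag
miR-17-5p: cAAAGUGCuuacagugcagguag
miR-20a-5p: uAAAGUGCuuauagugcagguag
let-7b-5p: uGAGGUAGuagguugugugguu
let-7c-5p: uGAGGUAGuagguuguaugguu
miR-27a-3p: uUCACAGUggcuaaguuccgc
miR-27b-3p: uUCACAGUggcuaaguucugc

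To ask how often small RNA genes carry R-loop signal, the share of windows called was set beside the share of all genome tiles of 1107 bases, the median window length. Windows of snoRNA genes were called most often, miRNA and rRNA windows next, and snRNA windows only slightly more often than tiles. The untreated lists held 23882 to 42571 peaks and the RNase H lists 3811 to 8034. The share of windows called was 7.15, 9.56 and 9.77% in the siScramble libraries, 9.91, 6.86 and 8.15% in the siDDX1 libraries, and 7.45, 7.80 and 9.52% in the siEXOSC3 libraries. After RNase H it was 0.614% in the library labelled siScramble, 0.450% in siDDX1 and 0.512% in siEXOSC3. Every untreated library thus lay above every RNase H library, and the 3 groups overlapped.

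Among snoRNA windows, 12.3, 14.9 and 15.3% were called in siScramble, 14.5, 11.8 and 13% in siDDX1 and 11, 11.7 and 13.9% in siEXOSC3. After RNase H the snoRNA share was 0.580, 0.193 and 0.193%. The mean over untreated libraries was 13.2% ± 1.55 for snoRNA, 8.94% ± 1.46 for miRNA, 5.82% ± 1.18 for rRNA, 3.44% ± 1.04 for snRNA and 2.48% ± 0.595 for tiles (SD, n = 9). The difference from tiles was 10.7 percentage points for snoRNA, 6.46 for miRNA, 3.35 for rRNA and 0.958 for snRNA, each positive in 9 of 9 libraries. Each gave p = 0.00391 in a two-sided exact permutation test within libraries, the smallest p that this test can give for 9 libraries, and stayed at 0.00391 after Benjamini-Hochberg adjustment over 5 tests. These p-values cover the spread between libraries, not between genes. The rRNA excess came from 1 array of 5S genes, described further on: without it 1.98% ± 0.402 of 281 rRNA windows were called, 0.501 points below tiles (p = 0.00391, exact permutation test). The rRNA excess also lost its call with cover of at least 50% of the window (0.00881 points, p = 0.953) and without the extension (0.299 points, p = 0.285, exact permutation tests).

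**Figure D1:**
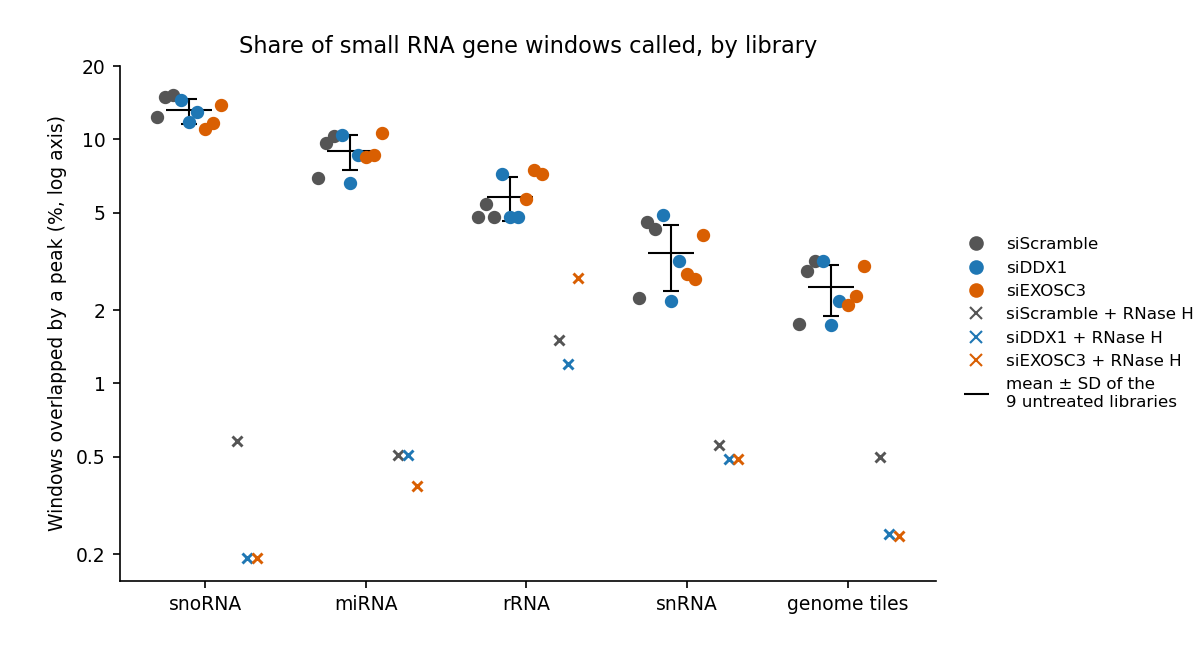
Percent of windows called (y axis, log scale) for each of the 4 classes and genome tiles (x axis), with a point for each library, coloured by group and marked by RNase H treatment. The snoRNA points without RNase H lie from 11 to 15.3%, above every tile point, and the RNase H points of snoRNA lie at 0.580% or below.

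RNase H lowered the share of windows called in all 4 classes. The mean change over the 3 groups was -12.8 percentage points for snoRNA, -8.48 for miRNA, -4.02 for rRNA and -2.92 for snRNA, and each gave p = 0.0156 in an exact two-sided permutation test, the smallest p that 64 assignments allow (adjusted p = 0.0156). The untreated mean was 40.8 times the RNase H mean for snoRNA, 19.2 times for miRNA, 6.67 times for snRNA and 3.22 times for rRNA, against 7.60 times for genome tiles. The RNase H comparison rests on 1 such library for each group.

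Since RNase H lowered calls everywhere, the loss was also set relative to tiles. The ratio of the snoRNA share to the tile share went from a geometric mean of 5.43 without RNase H to 1.03 with it, a change of -2.40 on the log2 scale. For miRNA the ratio went from 3.67 to 1.61, a log2 change of -1.19. For rRNA it moved the other way, from 2.44 to 6.07, a log2 change of 1.32. These changes each gave p = 0.0156 (exact permutation test, adjusted p = 0.0195). Without the 5S array the rRNA change was 0.46 (exact permutation p = 0.281), so 51 windows carried that class's result. The rRNA call was also lost with equal numbers of peaks (0.51), with cover of at least 50% (1.38) and without extension (1.73), and the miRNA call without extension (-0.36). The snRNA change was 0.38 with p = 0.0625 and did not pass the exact test, and its sign depended on the setting. It was positive and passed without windows near a gene start (0.60), with equal numbers of peaks (0.89) and without extension (1.04), and it was -0.46 and passed when a peak had to cover at least 50% of the window.

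Members inside a host gene were called more often than those outside. Inside a protein-coding gene 15.2% ± 2.17 of windows were called and outside 3.65% ± 0.567 (SD, n = 9 untreated libraries). Genome tiles also divided this way, with 4.90% ± 1.23 called inside protein-coding genes and 1.00% ± 0.219 of the tiles not wholly inside. A higher share inside genes is thus not particular to small RNA genes. For snoRNA these shares were 27.4% ± 3.40 and 4.69% ± 0.508. The difference was 22.7 percentage points for snoRNA, 9.78 for rRNA, 7.60 for miRNA and 4.82 for snRNA, positive in 9 of 9 libraries in each class (p = 0.00391, exact two-sided permutation test). The rRNA difference became -1.81 points when the host had to lie on the same strand as the gene, since the host model around the 5S array lies on the other strand. Strand also split the snoRNA: 39.7% ± 4.25 of the 367 windows on their host's strand were called, against 6.11% ± 2.00 of the 211 on the opposite strand. Noncoding hosts gave similar shares to the former, with 43.6% ± 4.21 of 83 snoRNA windows called, while 1.06% ± 0.187 of the 891 snoRNA windows with no host of either kind were called. These strand and noncoding splits are descriptions with no test.

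Hosted members were then compared with tiles of their own host gene, which asks whether the small RNA gene stands out from the gene around it. For snoRNA it did not pass the test: of the 546 hosted windows, among 578, whose host held a tile to compare, 24.5% were called against 24.3% of their hosts' tiles, a difference of 0.231 percentage points that was positive in 5 of 9 libraries (p = 0.398, exact permutation test). In hosts that encode ribosomal proteins the values were 92.1% for 38 windows and 91.5% for their hosts' tiles. Hosted miRNA windows were called in 12.5% against 10.6% of host tiles, 1.89 points higher (adjusted p = 0.00977, exact permutation test). Described by distance and with no test, the miRNA windows within 1000 bases of a start were called in 38.9% of 131 against 25.3% of their host tiles, and the 638 farther away in 7.11% against 7.62%. The host tiles lay anywhere in the host gene, so neither comparison was matched for distance to a start. Over the genome, tiles were called in 16% near a start and 1.83% far from one. Hosted snRNA windows lay 0.648 points below their host tiles (6.35 against 7.00%) and hosted rRNA windows 1.51 points above (10.4 against 8.91%), with adjusted p of 0.0781 and 0.132 in the same exact test. The snRNA difference passed it without siDDX1 replicate 1 (-0.799 points, adjusted p = 0.0260) and the rRNA difference without siScramble replicate 3 (2.07 points, adjusted p = 0.0391, exact permutation tests).

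**Figure D2:**
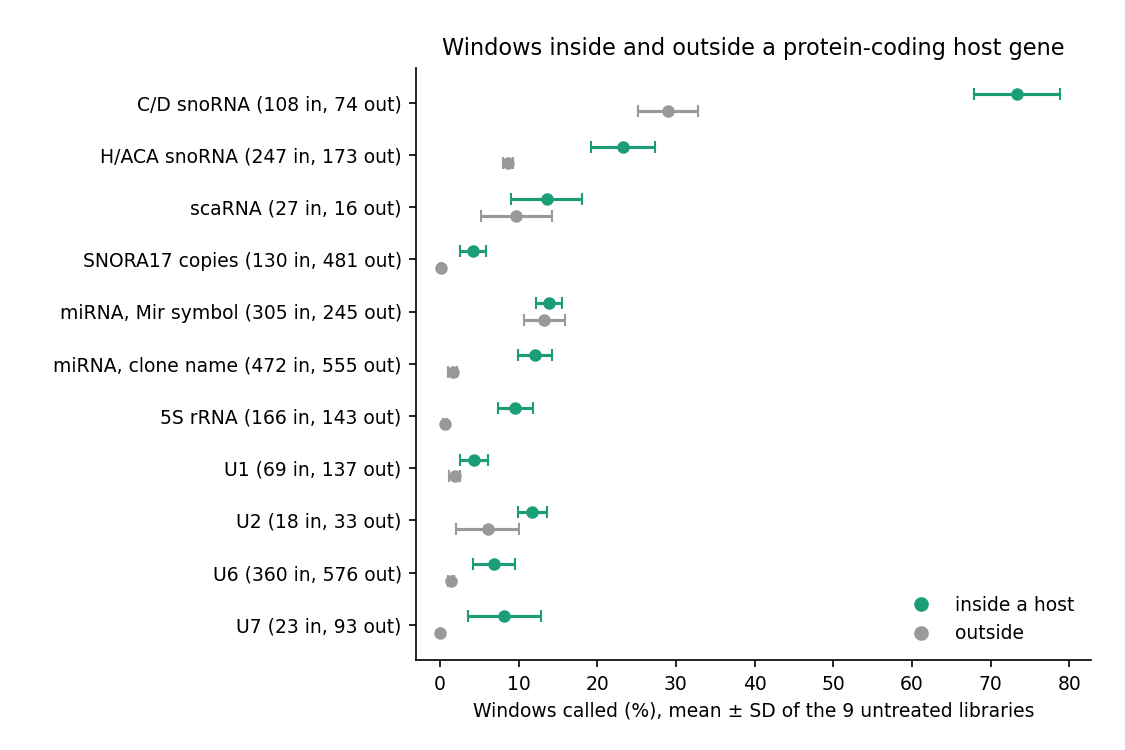
Percent of windows called (x axis, mean ± SD of the 9 untreated libraries) for 11 kinds of small RNA gene (y axis), inside a protein-coding gene in green and outside in grey, with the number of windows in each. C/D snoRNA, here those named SNORD or Snord outside the Snord115 and Snord116 families, stand at 73.4% inside a host against 29.0% outside. The miRNA with a Mir symbol, here with mmu-mir names included, stand at 13.8 and 13.3%.

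By name, snoRNA called SNORD or Snord outside the Snord115 and Snord116 families had 55.3% ± 4.61 of 182 windows called. Those named SNORA or Snora outside the SNORA17 copies had 17.3% ± 2.59 of 420. U3, counted apart from both, had 1.42% ± 1.84 of 47. The annotation names 611 genes SNORA17, and 0.982% ± 0.401 of their windows were called. None of the 164 windows of the Snord115 and Snord116 families, tandem C/D genes of the imprinted Prader-Willi region, was called in any of the 12 libraries. The 43 scaRNA windows, genes of Cajal-body RNA that guide modification of snRNA, were called in 12.1%. Windows of the 59 snoRNA in ribosomal protein genes were called in 92.5% ± 3.89, and those of the 519 in other protein-coding genes in 20.0% ± 3.40.

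Among miRNA, the 550 genes with a Mir symbol or mmu-mir name were called in 13.8% ± 1.64 of 305 windows inside a host. Outside it was 13.3% ± 2.64 of 245, and these shares overlapped between libraries. The 1027 miRNA genes with another name, such as that of a clone, were called in 12.1% ± 2.19 inside a host and 1.62% ± 0.541 outside. Among snRNA, 8.06% ± 2.85 of 51 U2 windows were called, with 3.53% for U6, 2.70% for U1 and 1.63% for U7. After RNase H the means were 4.58% for U2, 0.321% for U6, 0.647% for U1 and 0% for U7. The 33 U2 windows outside a host were called in 6.06% both without and with RNase H. Of these, 4 were called in at least 1 untreated library and 2 after RNase H, 1 of the 2 in no untreated library. The 18 U2 windows inside a host were called in 11.7% without RNase H and 1.85% with it. The latter was 1 window, which no untreated library called. All the called U7 windows were inside a host (8.21% of 23), as 0 of 93 outside were called in any untreated library.

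Distance to a gene start divided the members further. A window within 1000 bases of a protein-coding start was called in 42.8% ± 3.99 of 404 cases and a window farther away in 5.37% ± 0.987 of 4480, while tiles were called in 16% ± 3.16 and 1.83% ± 0.482. Near a start the share was 63.9% ± 4.76 for 144 snoRNA windows, 34.9% ± 4.58 for 180 miRNA windows and 25.9% ± 5.38 for 66 snRNA windows. Far from a start it was 7.96% for snoRNA, 5.6% for miRNA and 2.34% for snRNA. The 14 rRNA windows near a start were called in 6.35% and the others in 5.8%.

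Recurrence across libraries was described next, without a test. Of the 4884 windows, 657 (13.5%) were called in at least 1 of the 9 untreated libraries, against 5.19% of tiles, and 246 (5.04%) in all 9, against 0.883% of tiles. The 246 were 146 snoRNA, 77 miRNA, 15 snRNA and 8 rRNA windows. Neighbouring windows share peaks: after overlapping peaks were merged, the 246 windows lay in 173 regions, and the 146 snoRNA windows in 86. Once called, a snoRNA window was called in all 9 libraries in 52.3% of cases, a miRNA window in 32.0%, a rRNA window in 25.8% and a snRNA window in 14.2%, against 17.0% for tiles. The merged regions over windows were wider than regions in general, with a median of 1495 against 517 bases, and 41.3% of the 605 were found in all 9 libraries against 10.7% of all 69497. Picking regions by overlap with a window favours wide ones, and these shares were not matched for width.

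**Figure D3:**
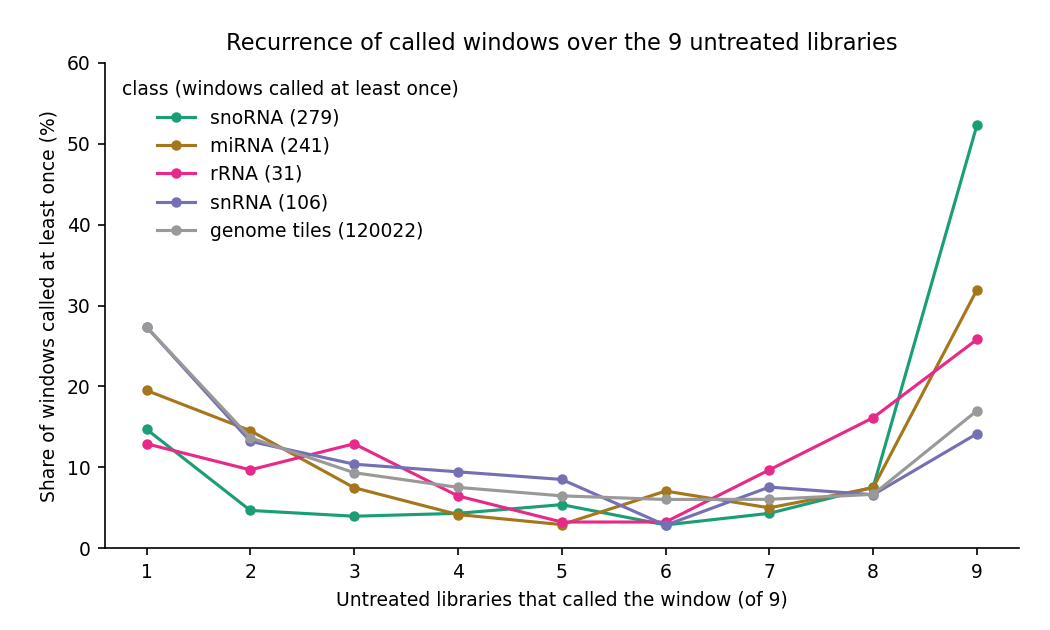
Share of the windows called at least once (y axis, percent) by the number of untreated libraries in which they were called (x axis, 1 to 9), for each class and for genome tiles. The snoRNA windows gather at 9 libraries with 52.3%, whereas 27.4% of snRNA windows and of tiles were called in 1 library only.

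The windows called in all 9 libraries shared features that the choice of members did not use. Their median GC content was 50.5%, against 42.6% for windows called in none, and the order held for miRNA (55.6 and 43.2%), snRNA (49.5 and 40.7%) and snoRNA (48.1 and 44.6%). A protein-coding start lay within 1000 bases of 115 of the 246 (46.7%), against 8.27% of all members. Of the 246 genes, 76 overlapped an exon of a protein-coding gene, 109 lay in an intron, 30 in a noncoding gene and 31 between genes, against 230, 1814, 191 and 2649 of all 4884. The gene lay on its host's strand for 165 of the 185 hosted ones, against 1253 of all 2044. The median length of the restriction fragment around them was 1926 bases, against 1033 for windows called in none, and 33.5 to 47.4% of the peaks in a list had an edge on a cut site of 1 of the 5 enzymes used to digest the DNA. The part of fragment length in these calls was not tested.

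Because a window is wider than its gene, the gene itself was also looked at. In the untreated libraries a peak reached the gene in 69.8% ± 1.73 of called windows, in 77.3% for snoRNA, 69.9% for miRNA, 54.6% for snRNA and 28.7% for rRNA. The gene was wholly inside the peak in all 9 libraries for 151 of the 246, including 97 of 146 snoRNA and 0 of 8 rRNA genes. Around the gene, the share of snoRNA genes under a peak was 9.78% at the centre, 3.36% at 5000 bases upstream and 5.21% at 5000 bases downstream. For miRNA the values were 6.00, 3.50 and 4.07%. For snRNA they were 1.70, 2.38 and 2.01% and for rRNA 1.34, 2.01 and 1.91%, lower at the centre than at either of these flanks.

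**Figure D4:**
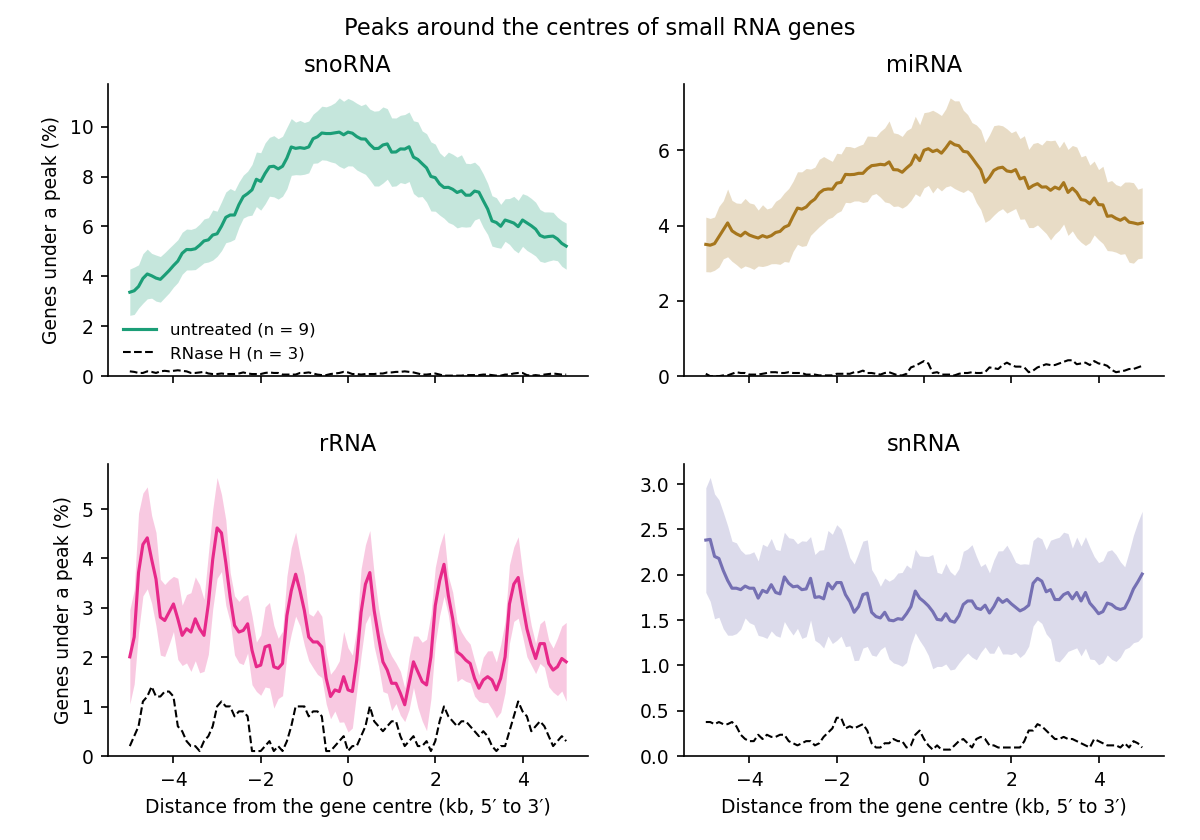
Percent of genes under a peak (y axis, its range set per panel) by distance from the gene's centre in kb, 5′ to 3′ (x axis), for each class, with the mean of the 9 untreated libraries as a coloured line, its SD as a band and the mean of the 3 RNase H libraries as a dashed line. The snoRNA line is at 9.78% and the miRNA line at 6.00% over the gene, while the rRNA line rises and falls with the spacing of the 5S array.

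Of the 146 snoRNA windows called in all 9 untreated libraries, 48 lay in ribosomal protein genes. Of 468 protein-coding genes that host a snoRNA, 70 held a snoRNA called in all 9 libraries, and 26 of these encode ribosomal proteins. The 59 snoRNA windows in ribosomal protein genes divided into 48 called in all 9 libraries, 10 in some and 1 in none, and between 51 and 57 were called in each library. In the hosts Eif4a1, Eif4a2, Nop56, Ncl, Hspa8, Rcc1 and Dkc1, which encode translation initiation helicases, nucleolar proteins, a chaperone and a chromatin factor, 14 of 21 windows were called in all 9, 2 in some and 5 in none. The hosts Nop56, Rpl13a, Rpl4 and Rpl7a held 4 such windows each.

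Gas5, a noncoding gene whose introns hold 9 annotated C/D snoRNA, was covered by peaks of 1 region of 5015 bases, so that all 9 of its windows were called in all 9 untreated libraries and in no RNase H library. At SNORD74 the peak's fold enrichment over the local background (MACS2) was 49.8, 51.8 and 41.2 in siScramble, 50.1, 32.1 and 40.1 in siDDX1 and 44.4, 49.0 and 57.1 in siEXOSC3. The groups overlapped. Of the 23 snoRNA windows in small nucleolar RNA host genes (Snhg), 9 were called in all 9 libraries, 10 in some and 4 in none.

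Snord68, a C/D snoRNA of the ribosomal protein gene Rpl13 (mm9 chr8:125626938-125627023, plus strand), had the highest median fold of the ribosomal protein hosts named here. Its values were 41.2, 64.7 and 65.0 in siScramble, 58.0, 37.9 and 57.7 in siDDX1 and 41.3, 39.0 and 75.8 in siEXOSC3. It was the only window of that list with a peak after RNase H, at 3.45 in the siScramble library. Further recurrent members were Snord72 in Rpl37 (45.5), Snora65 in Rpl12 (39.2), Snord82 in the nucleolin gene Ncl (39.1), Snora78 in Rps2 (30.7), Snord2 in Eif4a2 (27.9) and SNORA48 in Eif4a1 (27.8), all values median folds over the untreated libraries. Of the 43 scaRNA windows, SCARNA16, SCARNA11 in Chd4 and SCARNA21 in Chd3 were called in all 9 libraries, with median folds of 14.8, 11.1 and 7.9. Of 78 windows of U3, U8 and U13, snoRNA that act in rRNA cleavage or processing, 2 were called in all 9, 5 in some and 71 in none.

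The miRNA genes with recurrent peaks included clusters. Mirlet7b and Mirlet7c-2, of the let-7 family, shared 1 region of 11370 bases: the fold was 25.6, 54.2 and 49.7 in siScramble, 37.4, 34.2 and 39.9 in siDDX1 and 41.6, 39.7 and 67.0 in siEXOSC3, and no RNase H library had a peak. Of the 10 matched genes with the let-7 seed GAGGUAG shown above, these 2 were called in all 9 libraries, 1 in some and 7 in none. The seed AAAGUGC is shared by 6 genes: Mir106b and Mir93, inside the replication helicase gene Mcm7, were called in all 9, Mir17 and Mir20a of the Mir17 to Mir92 cluster in 2 each, and Mir106a and Mir20b in none. Mir106b had folds of 10.5, 20.4 and 9.0 in siScramble, 14.4, 9.22 and 15.5 in siDDX1 and 11.8, 7.34 and 20.1 in siEXOSC3, which overlap between groups. The seed UCACAGU belongs to Mir27a and Mir27b, in the Mir23a and Mir23b clusters, and both clusters were called in all 9 libraries with a median fold of 23.9.

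Mir132 and Mir212, miRNA known from neurons, shared a region, a seed (AACAGUC) and a median fold of 14.7, and were called in all 9 libraries. Other named members called in all 9 were Mir219-1 (43.0), Mir26b in Ctdsp1 (18.6), Mir26a-2 in Ctdsp2 (6.83), Mir324 in Dvl2 (23.1), Mir33 in the sterol regulator gene Srebf2 (11.7), Mir126 in Egfl7 (11.1) and Mir375 (11.1). Mir219-1 came from a list of 15 windows of Mir219, Mir128, Mir125, Mir99, Mir100, Mir137 and Mir181. In that list 1 window was called in all 9, 3 in some and 11 in none. Lists of miRNA with no called window in any untreated library were the 7 genes of the Mir290 to Mir295 cluster, which is typical of embryonic stem cells, the 29 of the imprinted Mirg and Rian cluster, the 3 Mir34 genes, the 2 Mir124 genes and Mir9. A list without a call says only that no peak overlapped the window.

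Of 1423 snRNA windows, 15 were called in all 9 libraries: 9 were U6 copies, 2 U2, 2 U1, 1 U7 and 1 U12. U12, whose sequence is given above, had folds of 5.97, 11.6 and 9.0 in siScramble, 11, 10.4 and 12.5 in siDDX1 and 13.1, 9.65 and 13.9 in siEXOSC3. The U7 copy in Grcc10 had a median fold of 16.3, and the U6 copies in Cops7a, Psmc5 and Wars had 16.8, 16.1 and 12.8. The commonest U6 sequence occurs 43 times, and 2 of these copies were called in any untreated library and 0 in all 9, against 72 of the 893 U6 windows with another sequence called at least once.

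Few windows had a peak after RNase H. Of 4884, 49 (1.00%) were called in at least 1 of 3 RNase H libraries, against 0.653% of tiles, and 12 in all 3. Of the 246 windows called in all 9 untreated libraries, 236 were called in no RNase H library. Counted within groups, 2 or 3 of the 3 siScramble libraries called 424 windows, of which 9 were also called in that group's RNase H library, with 7 of 396 for siDDX1 and 12 of 395 for siEXOSC3. For snoRNA the counts were 1 of 217, 1 of 203 and 1 of 190, and for rRNA 5 of 16, 3 of 19 and 8 of 24. Of the 49, 27 were called in no untreated library and 10 were copies of the 5S array.

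Just 4 windows were called in all 9 untreated and all 3 RNase H libraries. Of these mmu-mir-689-2 in Zc3h7a had higher folds with RNase H (116.3, 156 and 190) than without it (38.7 to 71.9), in a merged region of 424 bases. AC113316.1, an annotated miRNA in Cdk8, had overlapping folds of 46.7, 62.2 and 81.1 with RNase H and 51.3 to 140.0 without it. The other two were 5S copies of the array. Another 4 windows were called in all 3 RNase H libraries and in no untreated library: mmu-mir-2134-1, a U6 copy at mm9 chr1:139112121-139112224, SNORA32 in Sh3d19 and the U2 copy with C170T.

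The U2 copies shown above illustrate how calls differed between near-identical genes. The 4 identical copies on chromosome 11 were called in 9, 4, 1 and 6 of 9 untreated libraries and in no RNase H library, and the one called in all 9 lies inside Rdm1. Its folds were 6.44, 9.29 and 10.2 in siScramble, 10.5, 5.45 and 7.14 in siDDX1 and 12.7, 11.3 and 14.4 in siEXOSC3. The G109C copy was called in 7 of 9 untreated libraries and in all 3 RNase H libraries, with folds of 7.91, 8.78 and 17.4 after RNase H. The C170T copy was called in 0 of 9 untreated libraries and had folds of 5.10, 6.62 and 5.49 after RNase H. Copies this alike may share reads, which would leave the copy of origin uncertain for the gene itself. The peak lists hold no reads, and the part of this in the calls was not tested.

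The 5S array (mm9 chr8:126062686-126147645) holds 51 copies on the minus strand at a median spacing of 1698 bases, all inside Gm20388, a protein-coding model of 4435 kb on the plus strand, and all in 1 restriction fragment of 87559 bases. Of the 51, 6 copies were called in all 9 untreated libraries, 15 in some and 30 in none. The number called was 12, 12 and 10 in siScramble, 17, 12 and 11 in siDDX1 and 14, 19 and 17 in siEXOSC3, and 5, 3 and 8 in the RNase H libraries in the same order of labels. Each siEXOSC3 count lay above each siScramble count, and the siDDX1 counts overlapped both; these counts were not tested on their own. Of 10 copies called after RNase H, all were also called without it. Among the 32 copies with an identical sequence, 3 were called in all 9, 8 in some and 21 in none.

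The 2 copies called in all 12 libraries were n-R5s146, 1 of the 32 identical copies, and AC141881.2, a copy of 109 bases. At n-R5s146 the fold was 23.2, 24.5 and 24.0 in siScramble, 34.1, 20.9 and 29.6 in siDDX1 and 30.2, 36.6 and 42.1 in siEXOSC3, with 15.5, 14.3 and 20.2 after RNase H in the same order of groups. Every RNase H value lay below every untreated value there. At AC141881.2 the untreated values ran from 16.8 to 42.8 and the RNase H values were 24.7, 16.2 and 32.9, which overlap. Peaks stood beside the gene rather than on it: at 500 bases downstream of the gene's centre 9.33 ± 1.80 of 51 copies were under a peak, against 1.78 ± 1.79 at the centre (SD, n = 9), and with RNase H the means were 3.33 and 0. Stretches of 50 bases that occur once in the array made up a median of 0.841% of a called copy's window (0 to 27.3%) and 0% of a never-called copy's (0 to 17.4%), so nearly all 50-base stretches of these windows recur in the array. The part of this repetition in the calls was not tested.

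**Figure D5:**
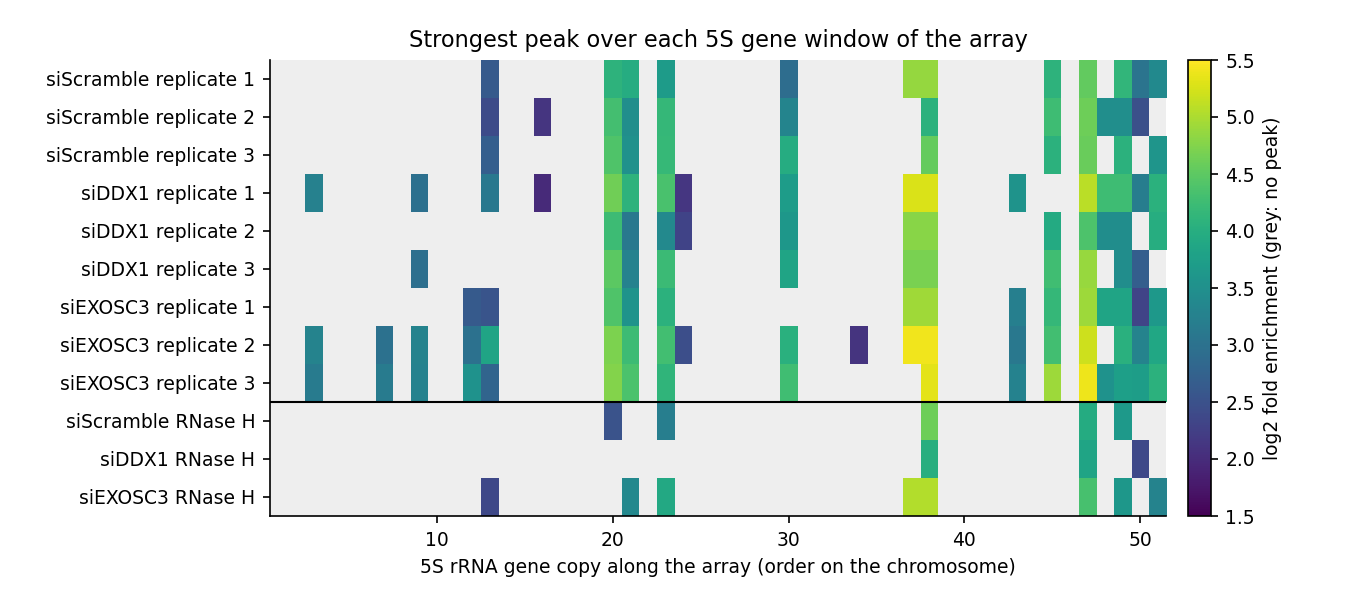
Log2 fold enrichment of the strongest peak over each of the 51 copies of the 5S array (colour, grey where no peak overlapped) by the copy's order along chromosome 8 (x axis) and by library (y axis, the RNase H libraries under the line). Copies called in all 9 untreated libraries stand among copies never called, and 30 of 51 were called in no untreated library.

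Elsewhere in the genome 281 rRNA windows were annotated, of which 10 were called in at least 1 untreated library and 2 after RNase H. The 2 called in all 9 untreated libraries were n-R5s40 in Gtpbp1, with folds of 5.3 to 13, and n-R5s197 in Gon4l, with 3.69 to 12.2. Neither had a peak after RNase H.

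The question of what depletion of DDX1 or EXOSC3 did to these windows was addressed by comparing the 3 groups. The mean share of windows called (± SD, n = 3) was 8.82% ± 1.46 for siScramble, 8.31% ± 1.53 for siDDX1 and 8.26% ± 1.11 for siEXOSC3. An exact permutation test of the F statistic over 280 splits gave p = 0.896 for all windows, 0.886 for snRNA, 0.307 for snoRNA, 0.164 for rRNA and 0.861 for miRNA (adjusted p 0.768 to 0.896). The snoRNA mean was 14.2% ± 1.63 in siScramble, 13.1% ± 1.36 in siDDX1 and 12.2% ± 1.48 in siEXOSC3. The rRNA mean was 5.02% ± 0.348, 5.62% ± 1.39 and 6.83% ± 0.968 in the same order. In pairs, siEXOSC3 minus siScramble was 1.81 points for rRNA (p = 0.1) and -1.98 for snoRNA (p = 0.2) in exact two-sided permutation tests, where 0.1 is the smallest p that 3 libraries against 3 allow. None of the 15 pairwise differences passed the test after adjustment, which at this size does not show that the groups are alike.

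Single windows called in all 3 libraries of 1 group and in none of another were few, and are given with the same count for merged regions over the genome. The shares of windows and regions have unlike bases. Each merged region held a peak of an untreated library, whereas 4227 of the 4884 windows held none. Against siScramble, 0 windows were called only in siDDX1 (0.2% of all merged regions) and 0 only in siScramble (0.403%). Against siScramble, 4 were called only in siEXOSC3 (0.0819% of windows, 0.544% of merged regions) and 8 only in siScramble (0.164 and 0.512%). Between the knockdowns, 2 were called only in siEXOSC3 (0.041% of windows, 0.506% of merged regions) and 1 only in siDDX1 (0.0205 and 0.393%). In merged regions over windows, of 605, these were 1, 0, 2, 1, 3 and 3 regions in the same order. The counts rest on 3 libraries each, and without siScramble replicate 1 the count called only in siScramble was 32 against siEXOSC3 and 17 against siDDX1.

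The windows called only in siScramble against siEXOSC3 included Snord69, a C/D snoRNA in the nucleostemin gene Gnl3, and Snord22 in Snhg1. Snord69 had folds of 18.7, 19.8 and 18.7 in siScramble, 23.6 and 16 in siDDX1 replicates 1 and 2, and no peak in siDDX1 replicate 3 or any siEXOSC3 library. Snord22 had folds of 8.79, 9.91 and 17.5 in siScramble, 9.16 and 8.61 in the same siDDX1 replicates, and no peak in the other 4 untreated libraries. Those called only in siEXOSC3 were the 5S copies n-R5s111 and n-R5s142, a U5 copy on chromosome 9 and AC161183.1 in Elf2. At n-R5s111 the folds were 6.21, 7.95 and 11.6 in siEXOSC3, with no peak in the 6 other untreated libraries. Snora20 in Tcp1, the window called only in siDDX1 against siEXOSC3, had folds of 6.54, 9.22 and 5.83 in siDDX1 and also a peak of 4.95 in siScramble replicate 2 and of 4.62 in the siScramble RNase H library.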

How the data were processed

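The authors aligned DRIP-seq reads to mm9 with Bowtie2 (version 2.4.4), sorted them with SAMtools and called peaks for each library against input with MACS2 (version 2.2.6); replicates were not pooled. In each list, as deposited, the authors' peak caller gave peak positions, a display score, the fold enrichment at the summit (a ratio to the local background) and −log10 p and −log10 q values. The lists give no read counts, so depth is unknown and peak number is its only trace; the input sample was not analysed here. Differential regions that the authors made with DESeq2 and annotated with HOMER (version 4.11) were not used.

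From these lists, windows, tiles of 1107 bases, host genes and merged regions were set up from the GENCODE vM1 annotation and overlapped with peaks by at least 1 base, with Python 3.11.15, numpy 2.4.6, pandas 2.3.3 and scipy 1.17.1. The value of a library is its percent of windows called, and log2 ratios to tiles had 0.5 windows added. Samples were grouped by title. Tests were exact permutation tests over libraries, with Benjamini-Hochberg adjustment over 5 tests, or 15 for pairs, and a threshold of 0.05. Fold values are the highest of the peaks over a window. Overlap and test steps were tested on simulated data. The windows, lists and the rule for named genes (fixed lists of snRNA, snoRNA hosts, 5S copies and miRNA clusters, ordered by recurrence and then fold, and the strongest members called in all 9 libraries) were chosen with earlier results of these data known. The annotation names many genes after their RNA family, so host lists hold all their snoRNA, and no member has a symbol starting with Rnu, Rny or Rn7sk. Members named as all-or-none, the U2 copies and the 5S array were picked after their values were seen. Sequences come from the mm9 genome, and mature miRNA from RefSeq. No sequence from chromosome 18 is shown. Some items are not reported here. Alternatives tried were a q-value limit, equal numbers of peaks, no or a longer extension, cover of at least 50%, merged windows, same-strand hosts, leaving out gene starts, chromosomes Y and M, each replicate or Gm20388, and a replicate block.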

Additional observations from a re-analysis of the deposited data

How the results depend on the processing

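The excess of windows over tiles and of hosted over other windows, each for all members together, and the loss of calls with RNase H for all members and each class kept their direction and side of the threshold under every alternative run, except the rRNA loss without extension (-1.24 points, exact permutation p = 0.0781). The RNase H libraries are 1 per group and could not be left out. The peak lists carry no depth, so an uncalled window is a window without a peak at that library's depth. The windows inside Gm20388 were left out as an alternative chosen after seeing the data.

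The log2 change with RNase H relative to tiles for snRNA, 0.38, was 0.60 without windows near a gene start, 0.89 with equal numbers of peaks, 1.04 without extension, each past the threshold, and -0.46, also past it, with cover of at least 50%. For rRNA, 1.32, it was 0.46 without Gm20388, 0.51 with equal numbers of peaks, 1.38 with cover of at least 50% and 1.73 without extension, none of them past the threshold. For miRNA, -1.19, it was -0.36 without extension, also not past it. The causes were not tested.

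For rRNA, hosted minus other windows became -1.81 points with hosts on the same strand, windows minus tiles -0.501 without Gm20388 (0.00881 with cover of at least 50% and 0.299 without extension, neither past the threshold), and windows minus host tiles -0.157 with same-strand hosts, -1.16 without Gm20388 and -2.18 without extension. Windows minus host tiles became 0.0123 for snRNA with same-strand hosts and -0.0913 for snoRNA with equal numbers of peaks. The siEXOSC3 minus siDDX1 difference became 0.109 points for all windows and 0.141 for snRNA with −log10 q of at least 5. The snRNA difference from host tiles, not past the threshold as reported, passed it at -0.742 with −log10 q of at least 5, -0.633 with equal numbers of peaks, -0.562 without extension and -0.809 without Gm20388, and the rRNA difference at 2.59 and 2.43 with the first 2 of these settings. The windows called in all 9 libraries were 162 without extension.

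The counts of windows called only in 1 group, given as siDDX1 or siScramble against each other, siEXOSC3 or siScramble against each other, and siEXOSC3 or siDDX1 against each other, moved as follows. With −log10 q of at least 5, siDDX1 had 1 and siScramble 3, siScramble had 5 against siEXOSC3, and siDDX1 had 2 against siEXOSC3. With equal numbers of peaks the first pair had 1 and 1, and siDDX1 had 2 against siEXOSC3. Without extension siScramble had 4 against siDDX1, the second pair had 2 and 3, and the third 1 and 3.

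Leaving out each untreated replicate in turn gave ranges, on 2 libraries where a group lost 1. The counts called only in 1 group ran from 0 to 8 (siDDX1) and 0 to 17 (siScramble) in the first pair, 4 to 12 (siEXOSC3) and 8 to 32 (siScramble) in the second, and 2 to 18 (siEXOSC3) and 1 to 15 (siDDX1) in the third; the 17 and the 32 were found without siScramble replicate 1, the 8 and the 15 without siDDX1 replicate 2, the 18 without siDDX1 replicate 1 and the 12 without siEXOSC3 replicate 1. The siDDX1 minus siScramble difference ran from -1.36 to 0.205 points for all windows, -1.03 to 0.340 for snRNA, -0.201 to 1.00 for rRNA and -1.41 to 0.560 for miRNA. The siEXOSC3 minus siDDX1 difference ran from -0.771 to 0.754 for all windows, -0.855 to 0.515 for snRNA and -0.285 to 1.62 for miRNA, and siEXOSC3 minus siScramble from -0.729 to 0.951 for miRNA. No pairwise difference passed the threshold under any alternative.

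Replicate numbers did not pair the libraries: deviations of same-numbered libraries correlated at -0.0649 to 0.0406 over 411 windows. With the replicate number as a block, the F statistic across groups was 0.191 for all windows (adjusted p = 0.944, exact permutation test), siEXOSC3 minus siScramble was -0.566 points, and no call changed.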
